A study of Mus musculus with 8 samples.

Results

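The vacuolar proton pump (V-ATPase) was followed at the RNA level in the hippocampus of mice with mucopolysaccharidosis VII, through 10 listed subunit genes, 4 of the membrane sector V0 and 6 of the cytosolic sector V1. The members were all probe sets of the expression array whose annotation gave a single gene symbol on that list. They came to 21 of the 22626 non-control probe sets, 8 for 3 V0 genes and 13 for 6 V1 genes, so that 9 of the 10 listed genes were measured. Atp6v0c, which encodes the proteolipid of the V0 rotor ring, had no such probe set and was not analysed here. The rule that takes probe sets for the listed genes uses no measured value, but the genes were listed with earlier results of these data known.

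The study hybridised RNA from the right-hemisphere hippocampus of 8 mice, each to its own Affymetrix mouse expression array. The 4 normal mice were mps/+ carriers of the Gusb allele mps and the 4 mutant mice were mps/mps. All were on the strain background B6.C-H2-Kbm1/ByBir, had been bred by mating carrier brothers with carrier sisters, and were housed together. Each group held 2 females and 2 males. The normal mice were a female of 38.3 weeks (normal 1), males of 25.6 and 19.6 weeks (normal 2 and 3) and a female of 14.6 weeks (normal 4). The mutant mice were a female of 38.3 weeks (mutant 1), 2 males of 25.6 weeks (mutant 2 and 3) and a female of 19.6 weeks (mutant 4). Both groups carried at least 1 mps allele, so no array came from a mouse without it. Expression values were log2 values of robust multi-array averaging (RMA) as the authors deposited them, and a change is the mutant mean minus the normal mean on that scale.

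The V-ATPase is a rotary pump that uses ATP to move protons into lysosomes, endosomes and synaptic vesicles. The V1 sector, on the cytosolic side, hydrolyses ATP at the A and B subunits and turns a central stalk. The rotor transmits the turn to the proteolipid ring of V0, and protons cross the membrane between that ring and subunit a. Lysosomal hydrolases, among them the beta-glucuronidase that Gusb encodes and that is missing in mucopolysaccharidosis VII, need the acid that the pump makes. In neurons the same pump drives transmitter loading of synaptic vesicles, so brain tissue is rich in its subunits. The transcription factors Tfeb, Tfe3 and Mitf are known to bind E-box sequences in promoters of lysosomal and pump genes.

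The promoter windows that RefSeq gives for the members on build GRCm38.p6, from 250 bases before to 50 bases after the annotated start, were therefore searched on both strands for the E-box CACGTG and for its extended palindrome TCACGTGA, which contains it. Windows were available for 8 of the 10 listed genes. The core CACGTG was found in 3 of these 8, Atp6v0b, Atp6v0d1 and Atp6v1a, and the extended form in Atp6v0d1 and Atp6v1a. Counted by window, 3 of the 10 windows of these genes held CACGTG. Of all 32851 mouse promoter windows, 7.15% held CACGTG and 0.974% held TCACGTGA, shares of windows and not of genes. The windows of the 2 members that held the extended form, 1 from each sector, are shown. Capitals mark TCACGTGA. The Atp6v1a window lies at chr16:44139210-44139509, minus strand, and its core CACGTG begins 131 bases before the annotated start. The Atp6v0d1 window lies at chr8:105566015-105566314, minus strand, and its core begins 3 bases before the start.
Atp6v1a: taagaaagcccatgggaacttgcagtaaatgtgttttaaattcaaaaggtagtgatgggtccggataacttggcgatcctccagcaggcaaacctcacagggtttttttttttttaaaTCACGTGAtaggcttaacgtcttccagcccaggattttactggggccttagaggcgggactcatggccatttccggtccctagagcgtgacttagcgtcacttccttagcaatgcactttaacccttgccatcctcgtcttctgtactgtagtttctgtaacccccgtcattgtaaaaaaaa
Atp6v0d1: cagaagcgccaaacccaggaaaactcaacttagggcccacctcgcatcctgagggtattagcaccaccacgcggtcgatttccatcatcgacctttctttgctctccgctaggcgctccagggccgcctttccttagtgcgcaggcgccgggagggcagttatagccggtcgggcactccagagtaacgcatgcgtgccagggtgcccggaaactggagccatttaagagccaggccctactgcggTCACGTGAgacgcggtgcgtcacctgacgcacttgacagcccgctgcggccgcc
The windows differed in composition, with 45.3% G and C in Atp6v1a and 62.3% in Atp6v0d1. A match describes the sequence only and no binding was measured.

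The libraries were compared with their labels before the members were read. Gusb, the mutated gene, is measured by 2 probe sets. The values of 1448124_at were 6.56, 5.40, 5.83 and 6.02 in normal 1 to 4 and 4.51, 4.71, 4.36 and 4.62 in mutant 1 to 4, without overlap, a change of -1.40 ± 0.23 (SE) with an adjusted p of 0.136 in limma. The other, 1430332_a_at, overlapped between the groups and had a change of 0.16. Array medians lay between 6.09 and 6.17. Normal 1 stood apart in RNA quality, with a mean difference of 3.58 between the 3′ and 5′ control probe sets of actin and Gapdh, against 0.22 to 0.75 on the other 7 arrays. Markers of dissected tissue also differed among arrays. Of 8 measured genes of hippocampal fields, 4 were above the highest of the absent bacterial controls (3.72) on every array, and their list mean ran from 5.81 to 6.54 in normal and from 5.76 to 7.80 in mutant mice. Striatal markers (6 of 9 measured, 0 with a higher mean in mutant mice) had means of 7.44 to 10.4 in normal and 6.60 to 7.70 in mutant mice. Choroid plexus markers (6 of 9 measured, 6 with a higher mean) had means of 5.01 to 6.11 and 5.96 to 8.70. Thalamus markers (7 genes, 6 with a higher mean) had means of 6.57 to 9.19 and 6.22 to 9.43. Microglia and macrophage markers (14 genes, 10 with a higher mean, 2 called higher) had means of 7.19 to 7.87 in normal and 8.39 to 8.65 in mutant mice. Astrocyte markers (8 genes, 7 with a higher mean, 1 called higher) had means of 8.80 to 9.12 and 9.44 to 9.49. Oligodendrocyte markers (6 of 8 measured, 0 with a higher mean) had means of 10.3 to 10.7 and 9.26 to 10.1. Synaptic vesicle markers, the neuronal site of the pump (10 of 12 measured, 8 with a higher mean, 0 called higher), had means of 9.20 to 9.87 in normal and 9.50 to 10.02 in mutant mice. General neuron markers (10 genes, 5 with a higher mean) had means of 10.10 to 10.44 and 10.15 to 10.37. Meninges and fibroblast markers (7 genes, 7 with a higher mean) had means of 4.86 to 5.47 and 5.67 to 6.26, and endothelial markers (7 genes, 7 with a higher mean) 6.11 to 6.69 and 6.52 to 6.83. In both lists 0 genes were called. The part of tissue makeup and RNA quality in the values below was not tested, and in bulk tissue fewer cells of a type and less RNA per cell cannot be told apart.

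The first comparison asked whether pump subunit RNA differed between mutant and normal hippocampus. None of the 21 member probe sets passed an adjusted p of 0.05 in limma, with 0 called higher and 0 called lower. Over all 22626 probe sets 18 were called higher (0.0796%) and 2 lower (0.00884%). At an unadjusted p of 0.05 the members again gave 0 calls, where 5.95% of all probe sets passed, and in 0 of the 21 did the normal and mutant arrays not overlap, where 3.56% of all probe sets separated the groups. The adjusted p of the members ran from 0.863 to 0.998. The mean was higher in mutant mice in 13 of the 21, or 61.9%, against 47.1% of all probe sets, and the median change was 0.08 against -0.01 over all.

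The intervals bounded the size of the change for most members. The 95% confidence interval of the change lay wholly within a 2-fold difference in either direction for 17 of the 21 (81.0%, against 82.7% of all probe sets) and within a 1.5-fold difference for 9 (42.9%, against 54.5%). The median interval reached 0.41 to either side of the change on the log2 scale, against 0.39 over all probe sets.

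Each gene was described first by its leading probe set, the one with the highest mean over the 8 arrays. With 1 probe set per gene, 8 of the 9 members had a higher mean in mutant mice (88.9%) with a median change of 0.12, where 52.5% of the leading probe sets of all 12393 genes were higher with a median of 0.01. The members are bright, with means of at least 9.36. Of the 1491 genes at least as bright, 58.6% were higher in mutant mice, with a median change of 0.04.

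**Figure D1:**
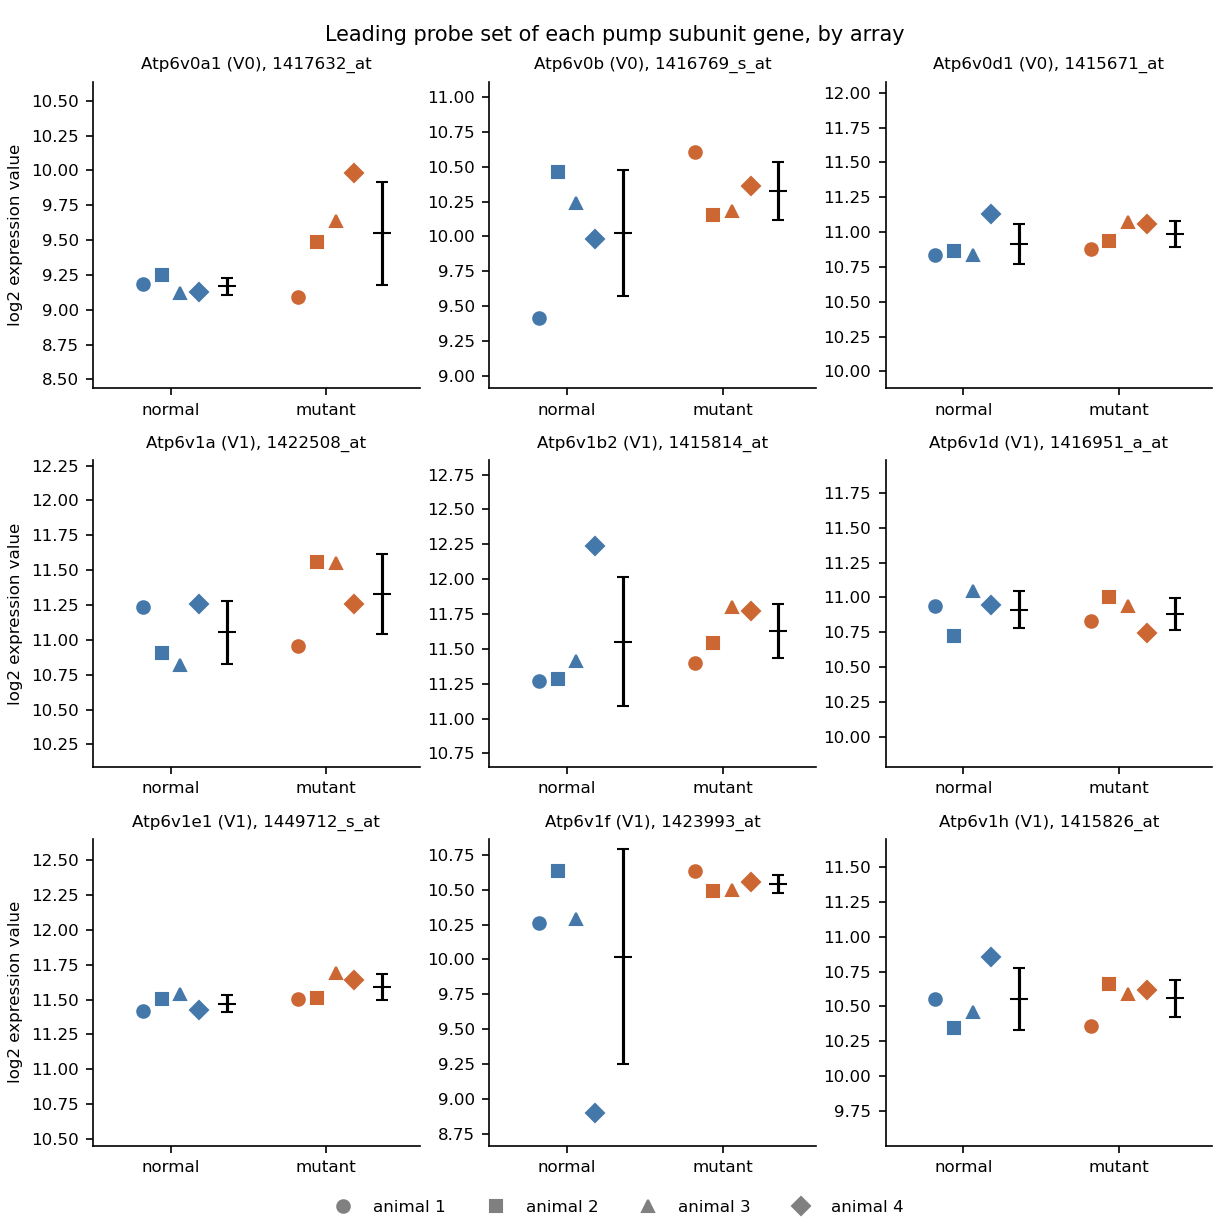
Log2 expression values of the leading probe set of each of the 9 measured pump subunit genes, with normal mice in blue, mutant mice in orange and 1 symbol per animal number. The dash and bar beside each group are its mean and SD (n = 4), every panel spans the same height on the log2 scale, and the normal and mutant arrays overlap in all 9 panels.

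In the V0 sector, Atp6v0a1 encodes the neuronal form of subunit a, which forms the path of the protons beside the ring. Its leading probe set 1417632_at had values of 9.18, 9.25, 9.12 and 9.12 in normal and 9.09, 9.48, 9.63 and 9.98 in mutant mice. Of the mutant mice 3 lay above every normal mouse and mutant 1, the oldest, lay below every one. The change was 0.38 ± 0.18 (95% interval -0.03 to 0.79), the smallest adjusted p of any member at 0.863 in limma. The change was 0.53 without mutant 1 and 0.23 without mutant 4, and the mean over the 4 probe sets of the gene had a change of -0.10. With all 8 arrays the other 3 probe sets of the gene had negative changes, of -0.26 for 1460650_at, -0.41 for 1425227_a_at and -0.10 for 1459924_at, and their correlations with the leading probe set over the 8 arrays were -0.20, -0.36 and -0.29. These 3 were dim. The values of 1460650_at were 3.35, 5.45, 6.36 and 6.72 in normal and 5.46, 4.99, 5.23 and 5.15 in mutant mice, so that normal 1 alone lay at the level of the absent controls, and without that array the change was -0.97 with an adjusted p of 0.342 in limma. The sign turned with other arrays left out, to 0.03 without normal 3 and 0.16 without normal 4. The values of 1425227_a_at were 4.65, 4.40, 6.13 and 4.31 in normal and 4.53, 4.67, 4.29 and 4.38 in mutant mice, with normal 3 alone above 5, and the change was 0.01 without that array. Those of 1459924_at stayed between 4.21 and 4.54 on all 8 arrays.

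Atp6v0b encodes a proteolipid of the rotor ring. Its leading probe set 1416769_s_at had values of 9.42, 10.46, 10.24 and 9.98 in normal and 10.61, 10.15, 10.18 and 10.37 in mutant mice. Normal 1 was the lowest and mutant 1, a female of the same age, the highest. The change was 0.30 ± 0.23 (adjusted p = 0.914, limma), it was 0.10 without normal 1, and it was -0.02 without normal 1 and 4, which leaves only males in the normal group. The 2 other probe sets followed the leading one over the arrays, with correlations of 0.86 for 1437013_x_at and 0.89 for 1425448_x_at and changes of 0.22 and 0.11. In 1437013_x_at the values were 9.67, 10.47, 10.30 and 9.62 in normal and 10.47, 10.17, 10.02 and 10.28 in mutant mice, and in 1425448_x_at they were 7.48, 7.94, 7.80 and 7.52 and then 8.04, 7.70, 7.60 and 7.84. Both were low in normal 1 and 4, the normal females. The suffixes of these 3 identifiers mark probe sets that can match more than 1 transcript, so they may share signal.

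Atp6v0d1 encodes subunit d, which couples the central stalk to the ring. Its single probe set 1415671_at had values of 10.84, 10.86, 10.83 and 11.13 in normal and 10.88, 10.94, 11.07 and 11.06 in mutant mice. All 4 mutant mice were above normal 1 to 3 and below normal 4. The change was 0.07 ± 0.11 (adjusted p = 0.952, limma), with a fold of 1.05 and a 95% interval of 0.883 to 1.25.

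**Figure D2:**
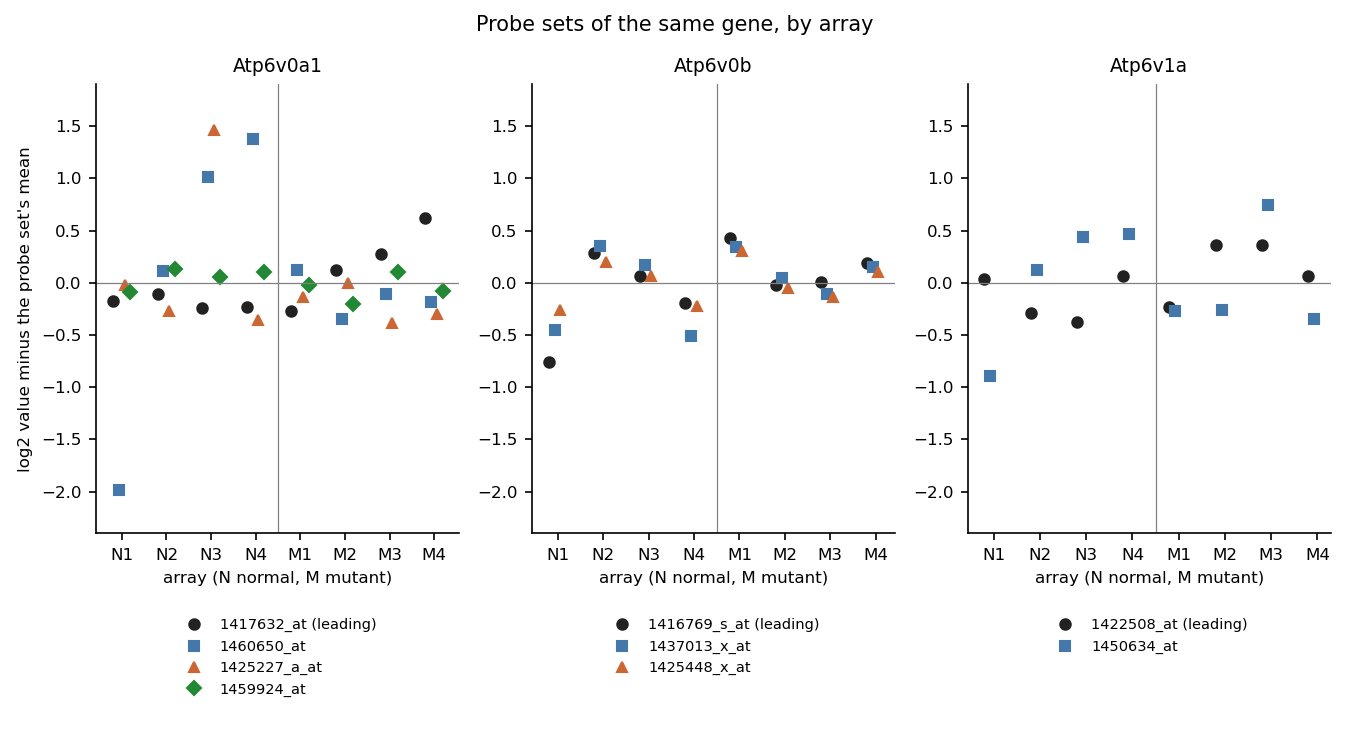
Log2 value of each probe set minus its own mean over the 8 arrays, for Atp6v0a1, Atp6v0b and Atp6v1a, with normal arrays N1 to N4 left of the vertical line, mutant arrays M1 to M4 right of it and 1 symbol per probe set. The 3 probe sets of Atp6v0b lie high and low on the same arrays, while the probe sets of Atp6v0a1 and Atp6v1a part, most on N1 for Atp6v0a1.

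In the V1 sector, Atp6v1a encodes the catalytic subunit A. Its leading probe set 1422508_at had values of 11.23, 10.90, 10.82 and 11.25 in normal and 10.96, 11.56, 11.55 and 11.26 in mutant mice. Both normal males lay below all 4 females and both mutant males above them. The change was 0.28 ± 0.17 (adjusted p = 0.898, limma), and 0.11 for the mean over the 2 probe sets of the gene. The second probe set, 1450634_at, had a change of -0.06, which ran from -0.37 to 0.08 with each array left out in turn, and a correlation with the first of 0.01 over the arrays. Its values were 9.35, 10.37, 10.68 and 10.71 in normal and 9.98, 9.99, 10.99 and 9.90 in mutant mice.

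Atp6v1b2 encodes the brain form of the nucleotide-binding subunit B. Its leading probe set 1415814_at had values of 11.27, 11.29, 11.41 and 12.24 in normal and 11.40, 11.54, 11.80 and 11.77 in mutant mice. Normal 4, the youngest mouse, was the highest of all 8, and the other 3 normal mice lay at the low end. The change was 0.08 ± 0.23 (adjusted p = 0.980, limma) with all arrays and 0.31 without normal 4. It turned sign, to -0.02 and -0.01, without normal 1 or without normal 2. Its other probe sets followed over the arrays, 1419883_s_at with a correlation of 0.95 and the dim 1449649_at with 0.71, and had changes of 0.19 and 0.11. In 1419883_s_at the values were 8.68, 8.96, 9.12 and 10.01 in normal and 9.22, 9.12, 9.71 and 9.45 in mutant mice, and in 1449649_at 4.20, 4.20, 3.65 and 4.94 and then 4.33, 4.10, 4.20 and 4.82. Normal 4 was the highest array in all 3 probe sets of the gene.

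Atp6v1f encodes subunit F, a part of the central stalk, and had the largest change of the 21 probe sets in size. The values of 1423993_at were 10.26, 10.63, 10.29 and 8.89 in normal and 10.63, 10.49, 10.49 and 10.56 in mutant mice. Normal 4 lay more than 1 log2 unit under every other array, and the 4 mutant mice lay within the range of normal 1 to 3. The change was 0.52 ± 0.34 (95% interval -0.25 to 1.29, adjusted p = 0.900, limma), and without normal 4 it was 0.15.

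Atp6v1e1 encodes subunit E, of the peripheral stalks. Its leading probe set 1449712_s_at had values of 11.42, 11.50, 11.54 and 11.43 in normal and 11.51, 11.51, 11.69 and 11.64 in mutant mice, a narrow spread with overlap. The change was 0.12 ± 0.10 (95% interval -0.10 to 0.34, adjusted p = 0.922, limma). Its second probe set 1420038_at had values of 7.30, 7.31, 6.51 and 7.32 in normal and 7.67, 6.95, 7.40 and 8.02 in mutant mice, a change of 0.40 ± 0.27, with mutant 4 the highest and normal 3 the lowest. The change was 0.20 without normal 3 and 0.23 without mutant 4. The dim 1449711_at lay between 5.29 and 5.55 on all arrays and had a change of -0.01.

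Atp6v1d, of the central stalk, and Atp6v1h, a subunit that regulates the coupling of V1 to V0, had the smallest changes among the leading probe sets. Values of the Atp6v1d probe set 1416951_a_at were 10.94, 10.73, 11.04 and 10.94 in normal and 10.83, 11.004, 10.94 and 10.74 in mutant mice, a change of -0.03 ± 0.11 (95% interval -0.29 to 0.22, adjusted p = 0.984, limma). Its 2 other probe sets followed the first with correlations of 0.73 for 1416952_at and 0.68 for 1438993_a_at, and all 3 had a lower mean in mutant mice. The values of 1416952_at were 10.92, 10.57, 10.90 and 10.87 in normal and 10.65, 10.68, 10.93 and 10.65 in mutant mice, a change of -0.08. Those of 1438993_a_at were 10.62, 10.61, 10.86 and 10.76 and then 10.63, 10.62, 10.70 and 10.57, a change of -0.09. The single probe set of Atp6v1h, 1415826_at, had values of 10.55, 10.35, 10.46 and 10.86 in normal and 10.36, 10.66, 10.59 and 10.62 in mutant mice. Its change was 0.004 ± 0.14 with a 95% interval of -0.31 to 0.32 (adjusted p = 0.998, limma).

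**Figure D3:**
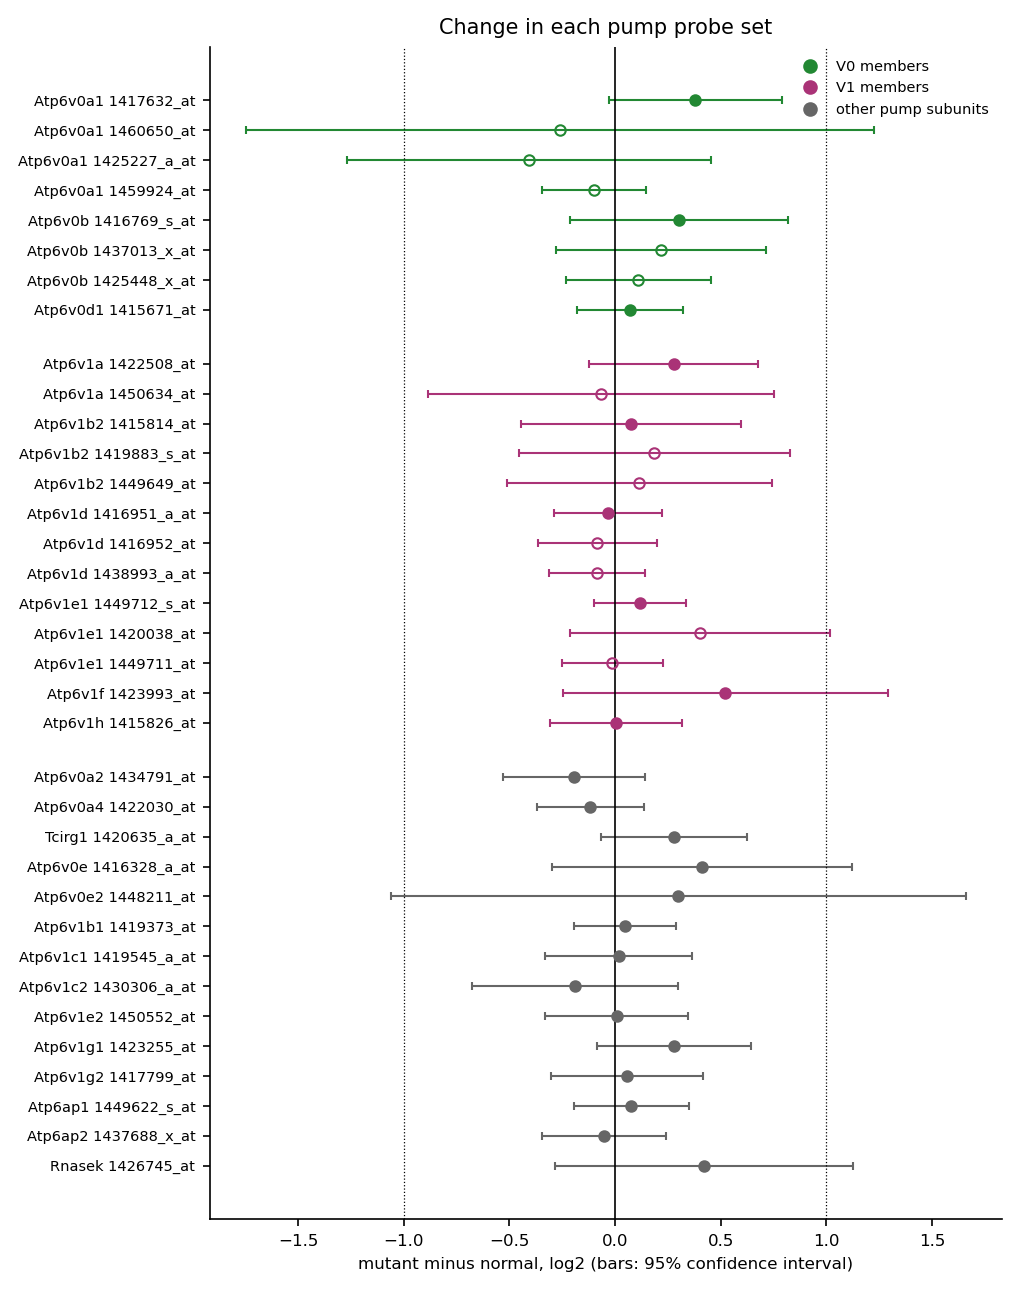
Log2 change of each pump probe set (mutant mean less normal mean) and its 95% confidence interval from limma, for the V0 members (green), the V1 members (purple) and the leading probe sets of the other pump subunits (grey). Filled points are leading probe sets, open points the other probe sets of a member gene, and dotted lines mark a 2-fold difference; every interval among the 21 member probe sets includes 0.

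Every normal array lay at an end of the range in several member probe sets. Normal 1 was the lowest of the 8 arrays in 7 of the 21 and the highest in 0. Normal 4 was the highest in 6 and the lowest in 2. Normal 2 was the highest in 3 and the lowest in 3, and normal 3 the highest in 3 and the lowest in 4. Normal 1 and 4, with the most uneven counts, were chosen after seeing the data to be left out. Without normal 1, 12 of the 21 had a higher mean in mutant mice with a median change of 0.01. Without normal 4, 16 had a higher mean, with a median of 0.11. Without both, 10 were higher with a median of -0.003. Among the 9 leading probe sets 7 stayed higher without both, with a median change of 0.14. Normal 1 and 4 were the only normal females. Without both, normal males were compared with mutants of both sexes, so genotype and sex cannot be told apart there. The shares over all probe sets were not counted for these settings.

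The second comparison set the V0 sector beside V1. Among the V0 probe sets 5 of 8 had a higher mean in mutant mice, with a median change of 0.09, and among the V1 probe sets 8 of 13, with a median of 0.08. By leading probe sets the counts were 3 of 3 with a median of 0.30 for V0 and 5 of 6 with a median of 0.10 for V1. The mean over the 3 leading V0 probe sets was 9.81, 10.19, 10.07 and 10.08 in normal and 10.19, 10.19, 10.30 and 10.47 in mutant mice, so that the groups met at 10.19. The mean over the 6 leading V1 probe sets was 10.95, 10.90, 10.93 and 10.94 in normal and 10.95, 11.13, 11.18 and 11.10 in mutant mice. The 4 normal mice were close together in V1, and mutant 1 lay just above them, at 10.947 against 10.945 in the highest normal mouse. The mean over all 9 leading probe sets was 10.57, 10.66, 10.64 and 10.65 in normal and 10.70, 10.82, 10.88 and 10.89 in mutant mice, so that the groups did not overlap. Singly, 0 of the 21 member probe sets and 3.56% of all probe sets separated the groups. Those shares do not apply to a mean over 9 probe sets, which varies less. How often such means of other genes separate the groups was not counted. The group means differed by 0.25 in V0, by 0.16 in V1 and by 0.19 over all 9, and without normal 1 by 0.18, 0.17 and 0.17. The difference between the sectors on each array, V1 minus V0, was 1.13, 0.71, 0.86 and 0.86 in normal and 0.75, 0.94, 0.88 and 0.63 in mutant mice, and the groups overlapped. These means are given as a description without a test.

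**Figure D4:**
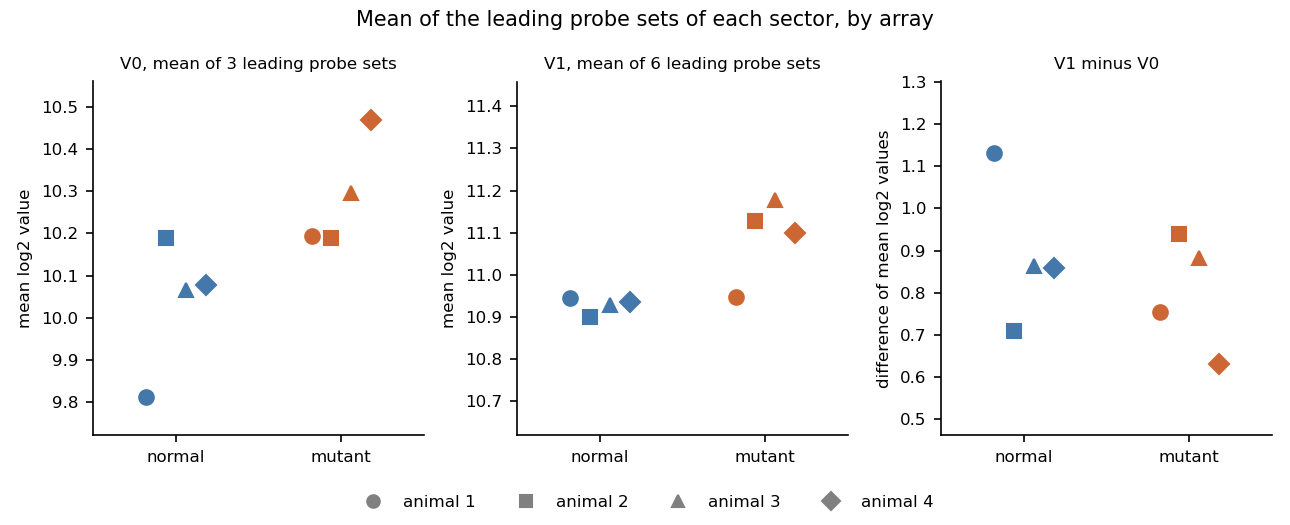
Mean log2 value over the leading probe sets of V0 (3 genes), of V1 (6 genes) and their difference, for each array, with normal mice in blue, mutant mice in orange and 1 symbol per animal number. The lowest mutant mouse meets the highest normal mouse in the means of both sectors, at 10.19 in V0 and 10.95 in V1, and the difference between the sectors overlaps between the groups.

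Correlations between the subunits across arrays varied widely. Over the 36 pairs of leading probe sets, 23 had a correlation above 0 over the 8 arrays, with a median of 0.25 and a range from -0.76, for Atp6v1f with Atp6v1h, to 0.95, for Atp6v0d1 with Atp6v1b2. The median was 0.17 over the 3 pairs within V0, 0.16 over the 15 within V1 and 0.31 over the 18 between the sectors. The medians within each sector lay under the median between the sectors. In both named pairs normal 4 was an extreme array. It was the highest in Atp6v0d1 (11.13), Atp6v1b2 (12.24) and Atp6v1h (10.86) and the lowest in Atp6v1f (8.89). The correlations were not computed without normal 4, and those among other genes were not counted. The arrays share dissection and RNA quality among all probe sets, so the correlations are given without a test. The mean profile of the 9 leading probe sets was most like those of Clec4n (r = 0.947), Casp9 (0.945), Aar2 (0.944), Man2b1 (0.940) and Mapk8ip2 (0.940) among 12384 other genes over the 8 arrays. These are the highest of 12384 correlations over 8 arrays, and how high such values run for other profiles was not counted. All 5 genes had a higher mean in mutant mice, by 0.24 (Aar2) to 0.56 (Man2b1), as had the mean profile. The part of the group difference in the likeness was not tested. Clec4n lay at 3.51 to 4.08, near the absent controls, and Man2b1 encodes the lysosomal alpha-mannosidase.

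Sex and age were also labelled, and with age as a covariate 0 of the 21 members were called between mutant and normal mice. For sex, in limma 0 of the 21 member probe sets were called between males and females, where 0.0354% of all probe sets were, and 2 passed an unadjusted p of 0.05, where 2.45% of all did. These 2 were lower in males, Atp6v1b2 1449649_at by a difference of -0.54 and Atp6v1e1 1420038_at by -0.53, and neither is a leading probe set. The genotype by sex interaction gave 0 calls among the members and 0% over all probe sets, and 4 members passed an unadjusted p of 0.05, where 10.5% of all probe sets did. They were the 3 probe sets of Atp6v0b and 1422508_at of Atp6v1a, with adjusted p of 0.397 to 0.407 in limma. In Atp6v0b 1416769_s_at the mutant minus normal difference was 0.79 in females and -0.18 in males, and in Atp6v1a 1422508_at it was -0.14 in females and 0.69 in males. The only normal females were normal 1, with the low RNA quality, and normal 4, the youngest, so sex cannot be told apart from these in the normal group.

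Of the other genes of the pump, 14 of 16 listed were measured and 0 were called, with 10 of 14 leading probe sets higher in mutant mice and a median change of 0.05. Tcirg1, the subunit a form of osteoclasts and macrophages, had values of 6.25, 5.997, 5.66 and 5.94 in normal and 6.30, 6.46, 6.11 and 6.09 in mutant mice, a change of 0.28 (adjusted p = 0.896, limma). Atp6v1g1, a peripheral stalk subunit, had a change of 0.28 in 1423255_at and of 0.41 in 1423256_a_at, which had an unadjusted p of 0.037 and an adjusted p of 0.815 in limma. Single arrays stood apart here as among the members, in 3 genes named after their values were seen. Atp6v0e and Rnasek, both of V0, were lowest in normal 4, at 7.79 and 7.93, and Atp6v0e2, also of V0, was 7.81 in normal 1 against 9.82 to 10.59 on the other arrays.

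The genes around the pump gave no call either. Of assembly factors and regulators 7 of 12 were measured and 6 were higher in mutant mice, with a median change of 0.16, among them Tmem199, an assembly factor, at 0.16 and Tbc1d24, a TLDc-domain protein of synapses, at 0.25 (adjusted p = 0.921 and 0.922, limma). Of the Ragulator and Rag GTPases, which link the lysosomal surface to mTORC1, 9 of 11 were measured and 6 were higher, with a median change of 0.09. Rragd, a Rag GTPase, lay at or under the highest absent control on 5 of the 8 arrays, so its change of -0.45 is read largely near background. Lamtor2, a Ragulator subunit, had a change of 0.44, with normal 4 at 7.11 and the other arrays at 8.74 to 9.49, and of -0.04 without normal 4. Of the lysosomal and endosomal ion transporters 9 of 12 were measured and 6 were higher, with a median change of 0.07. Tpcn1, a cation channel of endosomes and lysosomes, alone among these passed an unadjusted p of 0.05, at 6.56, 7.20, 6.21 and 5.89 in normal and 7.16, 6.93, 7.18 and 7.32 in mutant mice, a change of 0.68 ± 0.26 (adjusted p = 0.809, limma), while the mean over the probe sets of the gene had a change of 0.21. Clcn6, a chloride-proton exchanger of late endosomes, had a change of -0.22. Of the MiT/TFE factors 3 of 4 were measured, and Tfeb, a regulator of lysosomal genes, had a change of 0.01 and Tfec of 0.11, with Tfec under the highest absent control on every array.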

How the data were processed

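RNA from 8 hippocampi was hybridised to Affymetrix mouse expression arrays, 1 per animal. The deposited table holds log2 expression values made by the authors with RMA, after scanning under GCOS 1.4, per the submitters' processing notes. RMA shares quantile normalization among arrays and may shrink differences of dim probe sets. The values were used as deposited. Groups came from the genotype in the labels. The linear models of limma 3.58.1 (R 4.3.3), with moderated variances, were fitted to 22626 probe sets, leaving out the 64 controls, with Benjamini-Hochberg adjustment over all of them and a threshold of 0.05, for genotype, and for sex and its interaction with genotype. Of the probe sets, 20380 had 1 gene symbol, 691 several and 1555 none in the platform annotation. Leading probe sets have the highest mean over the 8 arrays. Levels of different probe sets entered this choice, the V1 minus V0 difference and the brightness comparison. They were not read as differences in RNA amount between genes. Named are all members and both Gusb probe sets, in each pathway list the genes with unadjusted p under 0.05 and the 2 with the smallest p, and the 5 genes closest in profile. The genes listed as members, the other lists and the tests were chosen with earlier results of these data known. Each group is 4 animals, and the number of arrays limits the precision. Data were simulated with 4 against 4 arrays and 22626 probe sets, with 100 changes of 1 on the log2 scale and 100 of 2 planted together. Of these, 49% of the changes of 1 and 86% of the changes of 2 were called, beside 11 false calls. The number of planted changes affects the adjustment over all probe sets, and the real comparison gave 20 calls. The shares may therefore be too high for the real arrays. The simulated noise was independent between probe sets, without the dissection and RNA quality that real arrays share. Changes under 1 were not simulated, and the largest member change was 0.52. Figures were drawn with matplotlib 3.10.9. Alternatives covered probe set choice, normalization, covariates, blocks and arrays left out.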

Additional observations from a re-analysis of the deposited data

Results flagged for a closer look

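In 6 of 42 groups of 4 member values, 1 array lay far from the other 3 by the Dixon rule. That rule sets the gap to the nearest value against the range of the 4. Chance alone passes its cut-off in about 1 in 20 groups. The groups were not independent, because they share the same arrays and some genes have several probe sets. The share over all probe sets was not counted, so an excess particular to the pump genes is not shown. Normal 4 was high in Atp6v0d1 1415671_at at 11.13 (others 10.83 to 10.86) and in Atp6v1b2 1415814_at at 12.24 (others 11.27 to 11.41). Mutant 3 was high in Atp6v1a 1450634_at at 10.99 (others 9.90 to 9.99) and in Atp6v1d 1416952_at at 10.93 (others 10.65 to 10.68). In the same probe set of Atp6v1d normal 2 was low at 10.57 (others 10.87 to 10.92), and normal 3 was low in Atp6v1e1 1420038_at at 6.51 (others 7.30 to 7.32). The part of these arrays' age, sex or dissection was not tested.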

How the results depend on the processing

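No member probe set was called under any of 27 alternatives in limma, and 0 of 535 member values passed the threshold. The smallest adjusted p was 0.274, for Atp6v0a1 1417632_at with array weights (change 0.52). The sign differed from the main value in 54 of the 535, in 16 of the 21 probe sets. The median member change ran from -0.004 (without _x_at and _s_at probe sets) to 0.117, and with each array left out in turn from 0.014 to 0.107. The V1 minus V0 median change was -0.014, and ran from -0.137 to 0.059 with each array left out. It was -0.205 with the highest probe set per gene and 0.189 when normals 1 and 4, chosen after seeing the data, were left out. That setting leaves only males in the normal group, so genotype and sex cannot be told apart in it. The number of all probe sets called was 20, and 6 to 27 with each array left out. It was 13 with the highest probe set per gene, 60 with array weights, 7 with sex, 10 with age and 6 with both as covariates, and 0 with the striatum marker mean as covariate. It was 3 and 5 without mutants 1 and 3 or 2 and 4, 6 without normals 1 and 3, and 10 without normals 1 and 4. The replicate block gave 0 member calls and 0 calls in all. Replicate numbers were given in accession order and the labels name no litter, though the same-numbered mice share sex in 4 of 4 pairs and age in 2. The deviations of same-numbered arrays had correlations of -0.27, 0.04, 0.33 and -0.16. With 4 animals a group, changes inside the intervals given cannot be told from 0.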
